A study of Mus musculus with 4 samples.

Results

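The AP-1 and EGR genes encode transcription factors that cells switch on within minutes of a growth signal. The 10 genes described here are the FOS family (Fos, Fosb, Fosl1 and Fosl2), the JUN family (Jun, Junb and Jund) and 3 EGR genes (Egr1, Egr2 and Egr3). They were chosen by gene symbol, as every probe set of the array that the platform annotation gives to one of them. This gave 16 probe sets for 10 of the 18193 genes with a symbol of their own. The 4 Affymetrix arrays measured messenger RNA of immortalised mouse fibroblasts, taken from embryos, whose PA1 gene is conditional (PA1 loxP/loxP). Cells infected with a retrovirus expressing Cre recombinase, which cuts out DNA between loxP sites, are the PA1 -/- group (2 arrays). Cells of the same kind infected with the empty retroviral vector are the PA1 +/+ group (2 arrays), so the controls carry the loxP alleles too. Both groups were grown in medium with 10% serum and selected in puromycin at 2.0 µg/ml for 3 days, after which the selection was repeated. Cre was present in the PA1 -/- cells alone, so an effect of Cre itself cannot be told apart from loss of PA1. The study asked which genes PA1 regulates.

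FOS proteins pair with JUN proteins through a leucine zipper, and the pair, called AP-1, binds DNA at short palindromic sites. JUN proteins can also pair with each other, whereas FOS proteins need a partner. EGR proteins are zinc finger factors that bind GC-rich sites. In fibroblasts, serum and growth factors induce many of these genes through MAP kinases, which act on serum response factor (SRF) bound at CArG boxes and on factors bound at cyclic AMP response elements (CREs). Their transcripts are mostly short-lived. PA1, read here as Pagr1a, belongs to the complexes in which KMT2C or KMT2D methylates histone H3.

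The arrays differed between the replicate numbers of the labels more than between genotypes. The correlation of log2 signals across probe sets was 0.971 and 0.977 for a PA1 +/+ and a PA1 -/- array with one number. For the pair of arrays within a genotype it was 0.918 and 0.920. No label says that arrays of a group came from separate cultures, so the p-values may cover technical spread only. Genotypes were therefore compared within each number, as 1 array against 1, as well as over all 4 arrays. Pagr1a, the targeted gene, was 11.5-fold lower in the PA1 -/- array at number 1 and 11.3-fold lower at number 2 by its brightest probe set. Folds here and below were taken after adding 9.96 to each signal, so they are smaller than the ratios of the printed signals. All 9 fibroblast markers were bright enough to test. Their summed signal was 80475 and 89487 in PA1 +/+ arrays and 74679 and 70954 in PA1 -/- arrays. All 9 were lower in PA1 -/- cells over the 4 arrays, as were 5004 of all 10714 tested genes. Of the 9, 6 were lower at both numbers, against 29.3% of all genes. The largest drops were in Pdgfra, at 1515 and 357 against 134 and 210, and in Dcn, at 138 and 103 against 41.4 and 37.9. The PA1 -/- signals of Dcn lie under the boundary for testing, near 62.8. Among markers of other cells, 2 of 5 for macrophages and blood and 1 of 4 for endothelium were bright enough to test. So were 2 of 5 for epithelium and 1 of 3 for muscle. The summed signals of these marker lists ran from 83.9 to 665 per array. The blood cell marker Ptprc read at most 16.8, and the endothelial marker Pecam1 at most 10.2. The macrophage marker Csf1r read 94.9 and 91.3 in PA1 +/+ and 175 and 147 in PA1 -/- cells, with no overlap, and Cd68 read up to 224. Their part in the results was not tested. In such bulk samples, fewer cells of a type and less RNA per cell cannot be told apart.

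Fos and Egr2 stood out from the rest: both were more than 2-fold lower in PA1 -/- than in PA1 +/+ cells at both replicate numbers. Fosl1 was the one tested gene of the 10 that was higher in PA1 -/- cells at both numbers, and Junb and Jund were lower at both. Egr1, Egr3, Fosl2 and Jun went opposite ways at the 2 numbers, by their brightest probe sets. Of the 9 genes bright enough to test, 2 were at least 2-fold lower at both numbers, against 0.831% of all 10714 tested genes. Egr2 is among the 9 through its PA1 +/+ signals, since its PA1 -/- signals lie under the boundary for testing. With a stricter filter, or a larger value added before taking logs, Fos alone is left in this count. None of the 9 was at least 2-fold higher at both, against 0.187%. Lower at both numbers were 4 of the 9, against 29.3% of genes, and higher at both 1, against 33.9%. Values of the 2 genotypes did not overlap for Egr2 and Jund, both lower in PA1 -/- cells, against 11.3% of genes.

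In the fit over all 4 arrays with genotype as the only term, no probe set passed limma at an adjusted p under 0.05: 0 of 22519 (0%), and so 0 of the 9 genes. Before adjustment, 440 probe sets and 231 of the 10714 genes had a limma p under 0.05, among them Egr2 as the only one of the 9. For every tested probe set of the AP-1 and EGR genes the limma adjusted p was 0.9998. This fit counts differences between replicate numbers as spread. It did not call Pagr1a, the targeted gene, either (limma adjusted p = 0.876), so missing its threshold does not show that a gene was unchanged. A fit that takes the number into account is given with the dependence on processing. The median log2 difference of the 9 genes was -0.20, against 0.02 for all tested genes, and the median absolute log2 difference was 0.49, against 0.19. The 0.49 is the value of Egr3, which went opposite ways at the replicate numbers.

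**Figure D1:**
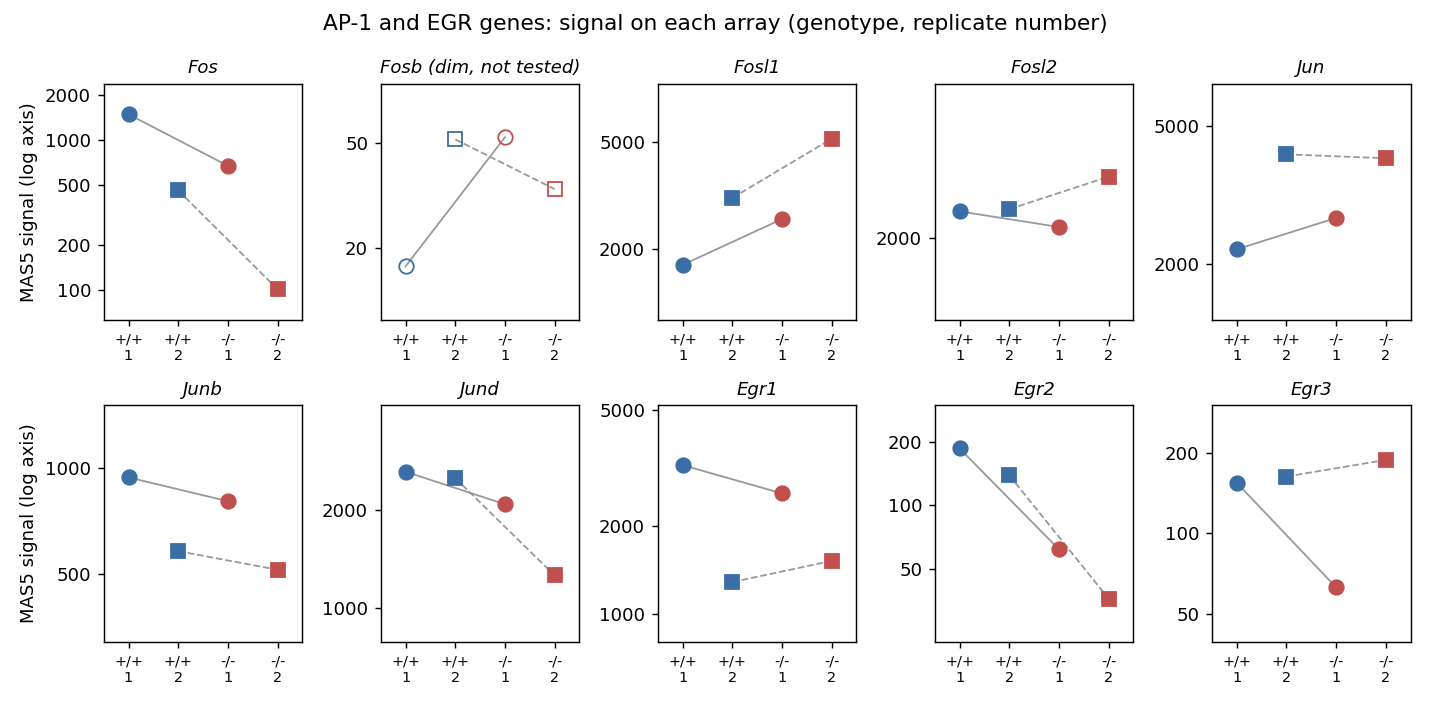
MAS5 signal (log axis) of each AP-1 and EGR gene on the 4 arrays, labelled by genotype and replicate number, by its brightest tested probe set. Circles and solid lines join the arrays numbered 1, squares and dashed lines those numbered 2, blue marks PA1 +/+ and red PA1 -/-, and open symbols mark Fosb, which was too dim to test. Both lines fall for Fos, Egr2, Junb and Jund, both climb for Fosl1, and for Fos the PA1 +/+ array numbered 2 (462) still lies below the PA1 -/- array numbered 1 (674).

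Fos encodes the founding member of its family, a short-lived protein with a strong activation domain. Its 1 probe set read 1480 and 462 in the PA1 +/+ arrays numbered 1 and 2, and 674 and 102 in the PA1 -/- arrays. The signal was lower without PA1 at each number, but the groups overlap, because the PA1 +/+ array numbered 2 lay below the PA1 -/- array numbered 1. The difference was 2.18-fold at number 1 and 4.23-fold at number 2, on the log2 scale -1.12 and -2.08. Over the 4 arrays the log2 difference was -1.60 with a moderated standard error from limma of 1.03 (n = 2 each). That error draws on the spread between arrays of one genotype, which here includes the difference between numbers, and on the other tested probe sets. Of the 10714 tested genes, 53 had a difference as low or lower, Fos included. Fos also differed most between the numbers: number 2 was 3.15-fold below number 1 in PA1 +/+ cells and 6.12-fold below it in PA1 -/- cells.

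The Fos promoter is shown because Fos was one of the pair of genes lower by 2-fold at both numbers. These are the 250 bases before the RefSeq start on GRCm38.p6, at chr12:85473640-85473889 on the plus strand, with the core of a CRE (TGACG or its reverse complement CGTCA) in capitals.
Fos: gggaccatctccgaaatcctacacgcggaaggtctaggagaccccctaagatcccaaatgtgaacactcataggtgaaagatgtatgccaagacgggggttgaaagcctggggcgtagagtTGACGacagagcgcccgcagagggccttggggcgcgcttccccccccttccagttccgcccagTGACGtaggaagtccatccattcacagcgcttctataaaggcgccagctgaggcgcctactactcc
The 2 cores begin at -129 and -66 from the start. Such a core, chosen for display after the window had been read, is common: 20.8% of the 32851 RefSeq promoter windows hold one. Among the AP-1 and EGR genes, windows of Egr2, Fosb and Junb hold one too. The window, which reaches 250 bases before and 50 after the start, held no CArG box, no full CRE (TGACGTCA), no AP-1 site (TGANTCA) and no EGR site (GCGGGGGCG or GCGTGGGCG), searched on both strands. That says only that these letters are not in this window.

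Fosl1 encodes FRA-1, a FOS protein without the activation domain of Fos, which accumulates later after stimulation and is abundant in growing and transformed fibroblasts. Its brighter probe set read 1753 and 3103 in PA1 +/+ cells and 2591 and 5138 in PA1 -/- cells. PA1 -/- signals were the higher at each number, by 1.47-fold and 1.65-fold, and again the groups overlap across numbers. The log2 difference over the 4 arrays was 0.64 with a standard error of 0.456 (n = 2 each). A second Fosl1 probe set read 346 and 963 against 632 and 1397, which was 1.80-fold and 1.45-fold higher, so both probe sets gave the same direction at both numbers. A difference as high or higher was found for 299 of the 10714 genes. Fos and Fosl1 thus went opposite ways between genotypes at each number, and also between numbers, where Fosl1 was higher at number 2 in both genotypes.

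Fosl2 encodes FRA-2, the other FOS protein that lacks the strong activation domain. It read 2294 and 2319 in PA1 +/+ cells and 2119 and 2733 in PA1 -/- cells, a log2 difference of 0.06 (SE 0.229). This was the narrowest range of any of the 9 genes, 0.37 on the log2 scale from lowest to highest array. Its second, dimmer probe set differed by 0.24 at number 1 and -0.20 at number 2, the reverse of the brighter one, which gave -0.11 and 0.24. Fosb, which encodes a protein close to Fos, read 17.0 and 51.7 in PA1 +/+ cells and 52.6 and 33.4 in PA1 -/- cells. These signals lie below the boundary for testing, near 62.8, and the numbers disagreed in direction, so no level or difference is drawn from them.

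Jun encodes the most strongly activating JUN protein and is known to drive its own promoter through AP-1-like sites. Its brighter probe set read 2207 and 4151 in PA1 +/+ cells and 2718 and 4044 in PA1 -/- cells, a log2 difference of 0.13 (SE 0.393) that was 0.30 at number 1 and -0.04 at number 2. The second Jun probe set read 634 and 860 against 1114 and 1289. In it the PA1 -/- arrays were both above the PA1 +/+ arrays, by 1.75-fold at number 1 and 1.49-fold at number 2, with a log2 difference of 0.69 (SE 0.277, n = 2 each). The probe sets of Jun thus disagreed at number 2, and averaging them gave 0.41.

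Junb encodes a weaker activator that can counter Jun. Junb read 939 and 580 in PA1 +/+ cells and 804 and 514 in PA1 -/- cells, lower without PA1 by 1.17-fold and 1.13-fold (log2 difference -0.20, SE 0.384). That is small beside its difference between numbers, 1.61-fold in PA1 +/+ and 1.55-fold in PA1 -/- cells. Jund, the JUN gene that is expressed steadily in resting cells and is little induced by serum, read 2618 and 2503 in PA1 +/+ cells and 2080 and 1256 in PA1 -/- cells. The PA1 +/+ values lay close together and both PA1 -/- values lay below them, by 1.26-fold at number 1 and 1.99-fold at number 2. The log2 difference was -0.66 with a standard error of 0.310 (n = 2 each), and 430 of 10714 genes were as low or lower. A second Jund probe set was too dim to test, at 22.8 to 36.3.

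Egr1 encodes the best known serum-induced zinc finger factor. It read 3234 and 1289 in PA1 +/+ cells and 2589 and 1522 in PA1 -/- cells. The 2 arrays numbered 1 were the high ones in both genotypes, and number 2 was 2.50-fold lower in PA1 +/+ and 1.70-fold lower in PA1 -/- cells. Between genotypes Egr1 differed by -0.32 at number 1 and 0.24 at number 2 on the log2 scale, -0.04 over the 4 arrays (SE 0.534), and by 0.016 after median scaling, which turned its direction.

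Egr2, also called Krox20, is induced by serum in fibroblasts and directs myelination in Schwann cells. Its tested probe set read 186 and 139 in PA1 +/+ cells and 61.9 and 36.1 in PA1 -/- cells. Both PA1 -/- arrays lay below both PA1 +/+ arrays, by 2.72-fold at number 1 and 3.22-fold at number 2 with 9.96 added to each signal. The log2 difference was -1.57 with a standard error of 0.383 (n = 2 each), and 59 of 10714 genes were as low or lower. A second Egr2 probe set, too dim to test, read 58.1 and 55.6 against 27.7 and 1.92, the same direction at both numbers. The PA1 -/- signals of Egr2 are themselves at or under the boundary for testing, so the size of the difference depends on the value added before taking logs: it was -0.997 when the median signal of 64.9 was added in place of 9.96.

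Egr2 is shown by its CArG boxes because it was the other gene lower by 2-fold at both numbers, and because no other gene of the 7 with a promoter window held one. RefSeq gives Egr2 5 windows from different transcript starts on GRCm38.p6, and 4 of them hold a CArG box, in 2 distinct places. The first begins at -72 from its start and lies in chr10:67537484-67537513. The second begins at -72, -73 or -133, depending on the start, and lies in chr10:67537787-67537816. Each is given on the plus strand with 10 flanking bases on either side and the box in capitals.
Egr2 first box: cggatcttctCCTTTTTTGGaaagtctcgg
Egr2 second box: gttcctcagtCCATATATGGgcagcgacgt
CArG boxes were found in 1.63% of all 32851 windows, and in a window of 1.81% of genes. Egr2 was searched through 5 windows and each other of the 7 genes through 1, so Egr2 had more room for a match. Sequence outside the windows was not searched. EGR sites, which 3.47% of windows hold, were found in the windows of Fosb and Fosl2. No window of these genes held a full CRE or an AP-1 site, against 1.79% and 7.81% of windows. Egr1, Egr3 and Fosl1 were not in the promoter table. A match describes the letters and was not tested as a binding site.

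Egr3, a close relative that EGR1 is known to induce in several cell types, read 155 and 163 in PA1 +/+ cells and 62.8 and 188 in PA1 -/- cells. The PA1 -/- array numbered 1 was the low one, 2.26-fold below its PA1 +/+ partner, while at number 2 the PA1 -/- array was 1.15-fold above it. The log2 difference over the 4 arrays, -0.49 (SE 0.545), therefore rests on that 1 array and was 0.23 without it. A second Egr3 probe set, too dim to test, read 49.2 and 83.7 against 22.4 and 65.3.

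**Figure D2:**
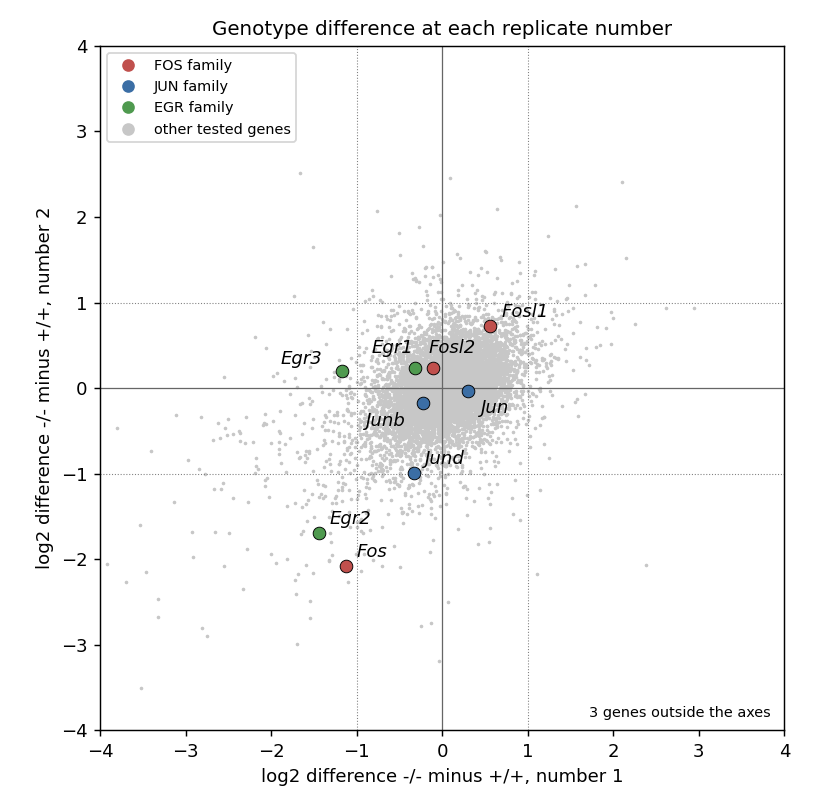
Log2 difference between PA1 -/- and PA1 +/+ at number 1 (horizontal) and at number 2 (vertical) for each tested gene, with the 9 tested AP-1 and EGR genes coloured by family and dotted lines at 2-fold. Fos and Egr2 lie in the lower left corner beyond 2-fold on both axes, Fosl1 lies in the upper right quadrant, and Egr3 was 2.26-fold lower at number 1 only.

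Between replicate numbers the 9 genes went both ways. For each of the 9, by its brightest probe set, number 2 differed from number 1 in the same direction in both genotypes, which most genes did (76.9% of those tested). For Fosl2 this rests on 1.01-fold in PA1 +/+ cells, and its second probe set went the other way, at -0.04 and -0.48 on the log2 scale. Fos, Junb, Jund, Egr1 and Egr2 were lower at number 2, and Fosl1, Fosl2, Jun and Egr3 were higher. Only Fos was at least 2-fold lower at number 2 in both genotypes, against 4.52% of genes, and none was at least 2-fold higher in both, against 3.78%. The epithelial keratin Krt18 moved between numbers too, at 298 and 266 in the arrays numbered 1 and 11.4 and 27.6 in those numbered 2. Its part in these differences was not tested. What the replicate numbers stand for is not given in the labels.

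**Figure D3:**
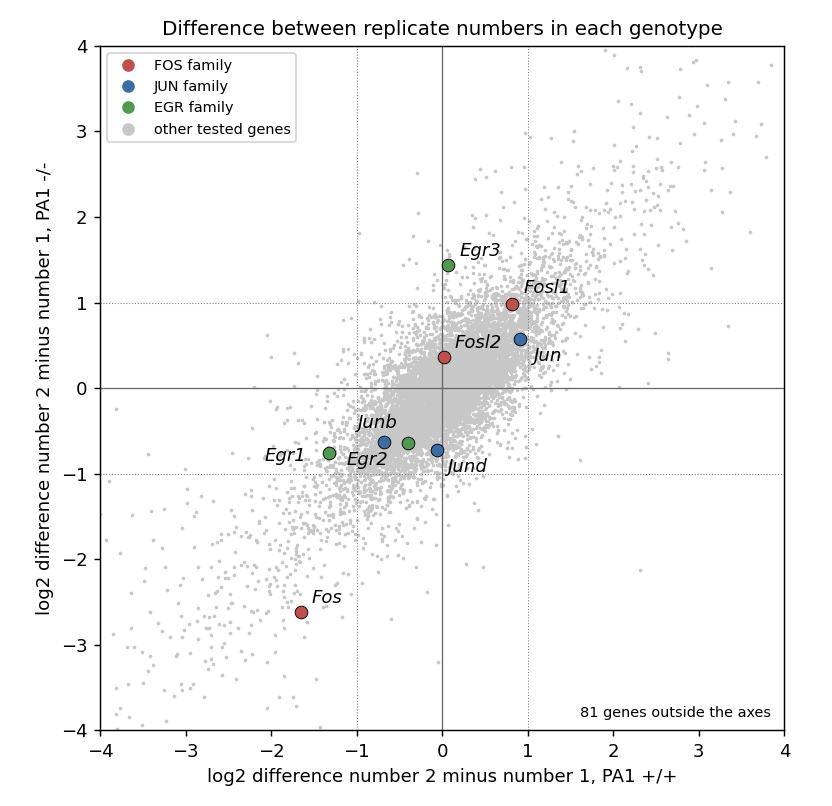
Log2 difference between number 2 and number 1 in PA1 +/+ (horizontal) and PA1 -/- cells (vertical) for each tested gene, with the 9 AP-1 and EGR genes coloured by family and dotted lines at 2-fold. All 9 lie in the upper right or lower left quadrant, and Fos lies farthest out, at -1.66 and -2.61.

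Over the 4 arrays Fos had the widest range of the 9 genes, 3.74 on the log2 scale. The tested genes whose centred log2 values lay closest to those of Fos were Col11a1, a collagen XI chain, at a root mean square distance of 0.084, Lrrc17, a secreted leucine-rich repeat protein, at 0.14, and Tcaf2 at 0.25. Col11a1 read 1495 and 401 in PA1 +/+ cells and 593 and 92.1 in PA1 -/- cells. In all, 21 tested genes outside the 10 lay within a distance of 0.5. With 4 arrays this is a description of shared highs and lows, in which both genotype and number take part.

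Other genes of the immediate-early programme were read through 7 lists. No member of any list passed limma over all probe sets with genotype as the only term, so the counts below are of direction alone. Other immediate-early transcription factors split: of 16 tested, 9 were lower at both numbers and 7 higher at both, with a median log2 difference of -0.27. The lowest were Cebpd, at -2.92 and -1.98 at numbers 1 and 2, and Cebpb, at -2.44 and -1.29. Both encode C/EBP factors of early adipocyte differentiation. On the other side stood Maff, a small MAF protein without an activation domain, which read 403 and 594 in PA1 +/+ and 864 and 828 in PA1 -/- cells. Csrnp1, a nuclear protein induced by AXIN1, read 439 and 176 against 644 and 293. This list thus held genes on either side, as the AP-1 and EGR genes did. None of its 16 went opposite ways at the 2 numbers, against 4 of the 9 AP-1 and EGR genes and 3948 of all 10714. Of all tested genes 29.3% were lower and 33.9% higher at both numbers.

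Of 19 feedback inhibitors, which shut growth factor signals down, 8 were lower and 7 higher at both numbers, with a median of -0.03 that was 0.02 after median scaling. Within numbers the median was -0.09 at number 1 and -0.12 at number 2. Leaving out 1 PA1 +/+ array gave -0.27 (without number 1) or 0.10 (without number 2). Leaving out 1 PA1 -/- array gave 0.12 (without number 1) or -0.29 (without number 2). With unequal arrays in the genotypes, such medians carry part of the difference between numbers. As the medians lie near 0 and genes lie on both sides, no direction is drawn for the list. Spry1, an inhibitor of receptor tyrosine kinase signalling, read 580 and 186 in PA1 +/+ and 132 and 84.9 in PA1 -/- cells. Errfi1, an inhibitor of the EGF receptor, read 4517 and 2834 against 1414 and 1619. The 2 highest with 1 sign at both numbers were Dusp4 and Dusp6, which encode phosphatases of ERK. Dusp4 read 350 and 881 against 454 and 1700, and Dusp6 679 and 1428 against 1002 and 2338. Values of the other phosphatase genes of the list are not given here. Of 18 other immediate-early and delayed-early genes, 2 were lower and 6 higher at both numbers, with a median of 0.01 (-0.01 after cyclic loess normalization). Phlda1 differed by -0.57 and the growth arrest gene Gadd45b by -0.32, while endothelin-1 (Edn1) differed by 0.72 and the EGF receptor ligand gene Ereg by 0.66.

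Genes of the MAP kinase and SRF pathway, which stands upstream of the AP-1 and EGR genes, were mostly a little higher in PA1 -/- cells. Of 17 tested, 15 were above 0, against 5710 of all 10714 tested genes. At both numbers 12 were higher, against 33.9% of all genes, and the median was 0.20. The kinase gene Braf read 606 and 689 in PA1 +/+ and 871 and 936 in PA1 -/- cells, and Map2k4, which activates JNK, 843 and 846 against 1055 and 1292. Map2k2 was the one gene lower at both, at -0.21 and -0.33. Without the PA1 -/- array numbered 2, 10 of the 17 were above 0, a count that carries part of the difference between numbers.

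Of 12 partners and regulators of AP-1 proteins, 2 were lower and 5 higher at both numbers, with a median of 0.12. Within numbers the median was 0.22 at number 1 and 0.12 at number 2. It was -0.05 without the PA1 +/+ array numbered 2 and -0.02 without the PA1 -/- array numbered 1. Values with an array left out carry part of the difference between numbers. Maf differed by -0.85 and Nfe2l2, the oxidative stress factor NRF2, by -0.29. Mafk, another small MAF gene, was at 0.74, next to Maff at 0.78.

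Targets showed no common direction for AP-1 and lay mostly below 0 for EGR. Of 8 AP-1 targets tested, out of 15 listed, 2 were lower and 4 higher at both numbers, with a median of 0.14. The matrix protein gene Tnc read 2296 and 1602 in PA1 +/+ and 7533 and 1933 in PA1 -/- cells, so its rank rests on number 1. The urokinase receptor gene Plaur read 1759 and 2505 against 2462 and 4118. Cyclin D1 (Ccnd1) read 2720 and 12577 against 1662 and 8719, and Timp1 differed by -0.0092. With the dim genes included the median of the AP-1 targets was -0.19 over 14 genes. Over the 8 tested genes it was 0.14 at number 1 and 0.13 at number 2. Without 1 PA1 +/+ array it was -0.02 (number 1 left out) or 0.49 (number 2 left out). Without 1 PA1 -/- array it was 0.32 (number 1 left out) or -0.14 (number 2 left out). With unequal arrays in the genotypes, such values carry part of the difference between numbers. Of 8 EGR targets tested, out of 12 listed, 7 lay below 0, against 5004 of all 10714 tested genes. At both numbers 5 did so, against 29.3% of all genes, and the median was -0.30. The growth factor gene Pdgfb read 91.3 and 108 in PA1 +/+ and 47.4 and 47.3 in PA1 -/- cells. Its PA1 -/- signals lie under the boundary for testing, so it is among the 8 through its PA1 +/+ signals. The prostaglandin E synthase gene Ptges read 313 and 780 against 233 and 495, and Pdgfa, on the other side, 617 and 1289 against 869 and 1385. The EGR target median was -0.27 at number 1 and -0.39 at number 2. It was 0.09 without the PA1 +/+ array numbered 2, a value that carries part of the difference between numbers.

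**Figure D4:**
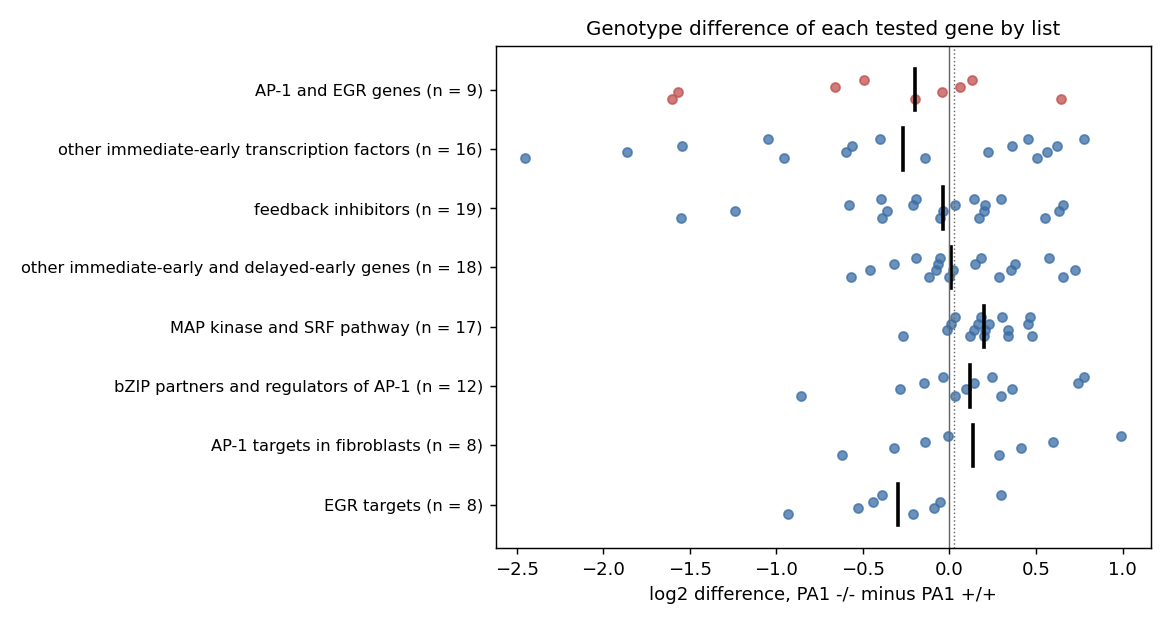
Log2 difference between PA1 -/- and PA1 +/+ over the 4 arrays for each tested gene (points) of the AP-1 and EGR genes (red) and of 7 related lists (blue), with black bars at the medians and a dotted line at the median of all tested genes, 0.02. The AP-1 and EGR genes spread from -1.60 to 0.64 around a median of -0.20. Of the 17 MAP kinase and SRF pathway genes 15 lie above 0, against 5710 of all 10714 tested genes.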

How the data were processed

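Total RNA on 4 Affymetrix arrays gave 1 deposited table of linear intensity values, which the submitters' processing notes credit to MAS5. Its version and settings were not given in the sources used here. Trimmed of the lowest and highest 2%, each array had a mean of 500, so differences are relative to the array average. Detection calls were not used. Controls (64) were left out of 45101 probe sets. Symbols came from the platform annotation (34945 probe sets with 1, 932 with several, 9160 with none), and genes were named only from the first kind.

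The value 9.96, the 20th percentile, was added before log2, which understates dim genes' differences. Testing took the brighter 50% of probe sets: 12 of the 16 probe sets, for 9 of the 10 genes, each gene read through its brightest. limma 3.58.1 in R 4.3.3 (lmFit, eBayes with trend, 2-sided) had genotype as its only term, and p-values were adjusted (Benjamini-Hochberg) over the whole tested table. Each standard error given is limma's moderated one, drawn toward a trend over all tested probe sets. An exact test of 2 against 2 cannot go below 0.333. Each list names up to 4 genes, the 2 lowest and 2 highest with 1 sign at both numbers. The likeness rule took the 3 genes nearest to the member with the widest range. Members and lists were chosen with earlier results of these data known. Promoter windows are RefSeq's, on GRCm38.p6; 7 of the 10 genes have one. Alternatives were other scalings, added values, filters, variance models and gene summaries, the number as a term, and leaving out each array.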

Additional observations from a re-analysis of the deposited data

How the results depend on the processing

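With the replicate number as a block, 447 of 22519 probe sets passed limma in place of 0, and 2 of the 9 AP-1 and EGR genes passed in place of 0, Fos (log2 difference -1.60, SE 0.238, adjusted p = 0.00597) and Egr2 (-1.57, SE 0.264, adjusted p = 0.0117). Fosl1 (adjusted p = 0.0529) and Jund (0.103) did not. With 4 arrays and the number as a term, little is left to measure the spread of each probe set by itself. The standard errors and p-values of this limma fit therefore draw mostly on the other tested probe sets. For Fos the log2 differences at numbers 1 and 2 were -1.12 and -2.08. In the lists the same fit called 5 of 16 other immediate-early transcription factors, 2 of 19 feedback inhibitors, 1 of 8 AP-1 targets and 2 of 9 fibroblast markers, each of them lower in PA1 -/- cells, and 0 in the 4 lists of other immediate-early genes, the MAP kinase and SRF pathway, AP-1 partners and EGR targets. Over all 10714 tested genes the fit with the number as a block called 266, of which 195 were lower and 71 higher in PA1 -/- cells. Whether the numbers pair the samples is not given in the labels. Deviations of same-numbered arrays from their group means correlated at 0.805 across probe sets, with only 2 numbers to judge by. Under the other alternatives 0 of the genes passed. The count of 2 genes at least 2-fold lower at both numbers was 1 with the median signal as the added value, and 1 with a filter keeping the upper 30%, which removes Egr2. Egr1 was at 0.016 after median scaling. Leaving out 1 array leaves unequal numbers in the genotypes, so those values carry part of the difference between numbers. The median over the 9 genes then ran from -0.54 to -0.15, Fos from -2.91 to -0.30, Fosl1 from 0.15 to 1.14, Egr2 from -1.89 to -1.25 and Jund from -1.02 to -0.30. Egr1 ran from -0.70 to 0.62, Jun from -0.32 to 0.58, Junb from -0.54 to 0.15, Fosl2 from -0.12 to 0.24 and Egr3 from -1.21 to 0.23, and so changed sign. List medians ran from -0.45 to -0.10 for other immediate-early transcription factors, from 0.06 to 0.18 for other immediate-early genes, from 0.12 to 0.29 for the MAP kinase and SRF pathway, from -0.05 to 0.32 for AP-1 partners and from -0.28 to 0.09 for EGR targets. Precision is limited by 2 arrays a genotype and, for Egr2, Egr3 and Fosb, by signals near the boundary for testing.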
